A study of Mus musculus with 10 samples.

Results

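Pol III loci of primary mouse embryonic fibroblasts (MEFs) were described by their distance to the nearest peak of RNA polymerase II (Pol II) in the same cells. The loci were made by merging the autosomal peaks of 3 Pol III subunits, POLR3C, POLR3G and POLR3GL, wherever peaks shared at least 1 bp. This gave 305 loci, out of 389 Pol III loci in the whole series when both of its cell types and all chromosomes are counted. The Pol II list held 12962 autosomal peaks. The series holds peaks called from ChIP-seq, the sequencing of DNA that is precipitated with an antibody to a bound protein, in MEFs and in ES-E14TG2a mouse embryonic stem (ES) cells. The MEFs were isolated in-house from E12.5 embryos, grown with serum and without LIF, and fixed after 3 to 5 passages. The ES cells were grown with LIF and serum on gelatin and serve here as a comparison for Pol II. The labels name no treatment or genetic change and do not say how many embryos were pooled. Antibodies to the 3 Pol III subunits were made in-house, and Pol II was precipitated with the N-20 antibody. Each antibody was used on 1 library per cell type, so that no replicate error exists, no test between conditions was possible, and all values below are descriptions. Marker genes of fibroblasts were not checked, because the gene table at hand is of another build (GRCm38) than the peak lists (mm9). For the same reason loci are named by mm9 position, with no gene, exon, intron or UTR attached.

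Pol III makes short non-coding RNAs such as tRNAs, 5S rRNA, U6 and 7SK RNA, while Pol II makes messenger RNAs and many non-coding RNAs. POLR3C belongs to a subcomplex of Pol III that takes part in promoter opening, and POLR3G and POLR3GL are paralogs that occupy the same place in it. Pol II and its associated chromatin marks are known near many active tRNA genes of mammalian cells. The distances below are between called Pol III loci and Pol II peaks only, without gene classes or chromatin marks. The N-20 antibody was raised against the amino terminus of the largest Pol II subunit.

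The lists behind the loci differed in length. On autosomes there were 274 POLR3C peaks of 224 bp, 176 POLR3G peaks of 148 bp and 263 POLR3GL peaks of 148 bp, while Pol II peaks were 211 to 9068 bp wide with a median of 1094 bp. Of the 305 loci, 160 (52.5%) were called by all 3 Pol III lists, 88 by 2 lists and 57 by 1 list. The merged loci were 148 to 356 bp wide, with a median of 224 bp. The read depth of the libraries is unknown, and a locus without a Pol II peak may carry Pol II below the calling threshold.

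Pol III loci most often lay either in a Pol II peak or more than 2 kb from one, and few lay in between. Distance was counted between the nearest bases of locus and peak, with 0 for a shared base. In the first class, 93 of 305 loci overlapped a Pol II peak, or 30.5% (exact Clopper-Pearson 95% interval 25.4 to 36.0%). Only 16 loci (5.25%, 3.03 to 8.38%) lay at 1 to 500 bp and 13 (4.26%, 2.29 to 7.18%) at over 500 and up to 2000 bp. A further 59 loci (19.3%, 15.1 to 24.2%) lay at over 2000 and up to 10000 bp, and 124 (40.7%, 35.1 to 46.4%) lay over 10000 bp away. Within 2 kb there were thus 122 loci, or 40.0% (34.5 to 45.7%). The intervals cover counting error over loci only and are too narrow where neighbouring loci share a Pol II peak.

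For background, the same classes were measured over all autosomal bases between the first and the last peak of each chromosome. Of these bases 0.765% lay in a MEF Pol II peak, 0.522% at 1 to 500 bp, 1.53% at over 500 and up to 2000 bp, 7.04% at over 2000 and up to 10000 bp and 90.1% over 10000 bp from one. Bases are points, whereas loci are about 224 bp wide, so the like-for-like value for loci is the share of locus centres inside a Pol II peak, which was 26.2%. The neighbourhood of the loci was itself rich in Pol II. Of the bases within 50 kb of a locus and outside the loci, 3.37% were in a Pol II peak and 60.4% were over 10000 bp from one. The share of loci was above that of these bases at 0 bp and, by a smaller margin, at 1 to 500 bp (5.25% against 2.39%). It was below that of the bases at over 500 and up to 2000 bp (4.26% against 6.97%) and at over 2000 and up to 10000 bp (19.3% against 26.8%). At over 500 and up to 2000 bp the local value lay inside the interval of the loci. The 2 shares are weighted differently, because overlapping 50 kb windows were joined and each base counted once, while every locus of a cluster counted. With each cluster or lone locus given a total weight of 1, 51.3% overlapped Pol II and 28.8% lay over 10000 bp away.

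**Figure D1:**
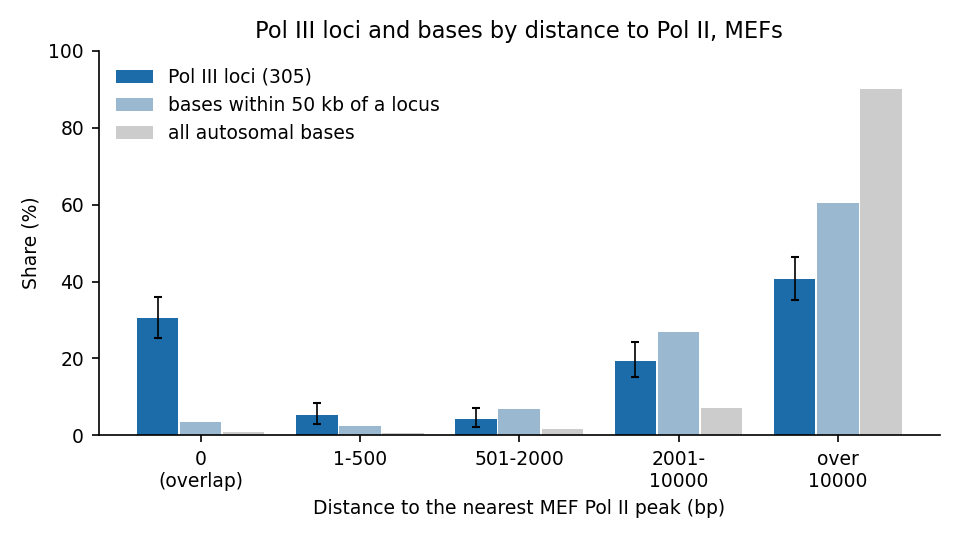
Share (%) of the 305 MEF Pol III loci in each class of distance (bp) to the nearest MEF Pol II peak, with exact 95% intervals as bars, beside the share of bases within 50 kb of a locus and of all autosomal bases. The loci reach 30.5% at overlap against 3.37% and 0.765% of bases, and 40.7% over 10000 bp against 60.4% and 90.1%. A locus overlaps if any of its bases is shared, and every locus of a cluster counts, while each base counts once.

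Loci just inside and just outside the edges of the classes were as follows. The nearest locus outside a peak was chr10:92895767-92895990, 17 bp from a Pol II peak of 510 bp and called by POLR3C alone with a score of 47. Scores are those the authors deposited, on scales that are not stated, and each is read only as a rank within its own list. At the 500 bp edge, chr3:96961890-96962113 lay 428 bp away and chr13:23538541-23538788 lay 523 bp away. At the 2000 bp edge, chr1:173041453-173041676 (1978 bp) and chr11:68875786-68876012 (2097 bp) stood on either side. At the 10000 bp edge, chr13:22016695-22016938 was 9953 bp and chr3:96303368-96303622 was 10063 bp from Pol II. The classes from 1 to 500 bp and from there to 2000 bp hold 16 and 13 loci, so that values for them rest on few loci. The farthest loci outside chromosome 18 were chr9:104310867-104311090 (145285 bp), chr4:82265409-82265632 (112041 bp) and chr8:36401606-36401829 (101522 bp). All of these 3 were called by POLR3C alone, with scores of 55 to 66 in a list whose median was 215.

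Pol II cover declined to its flanking level within about 2 kb of the locus centre. Averaged over both sides, the share of positions inside a Pol II peak was 26.2% at the centre, 24.3% at 200 bp, 19.3% at 500 bp, 11.6% at 1000 bp, 6.23% at 1500 bp and 3.61% at 2000 bp. At 5000 and 10000 bp it was 3.11% and 2.30%. Over all loci the cover was at its height on the locus or within 100 bp of it (26.4%). In clusters of 8 or more loci it was 7.19% at the centre and 8.17% at 100 and 200 bp. Called peaks are unbroken and mostly wider than a locus, so a dip of Pol II signal over the locus itself could not be seen. The transcribed strand is not in the lists, so upstream and downstream sides could not be told apart.

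**Figure D2:**
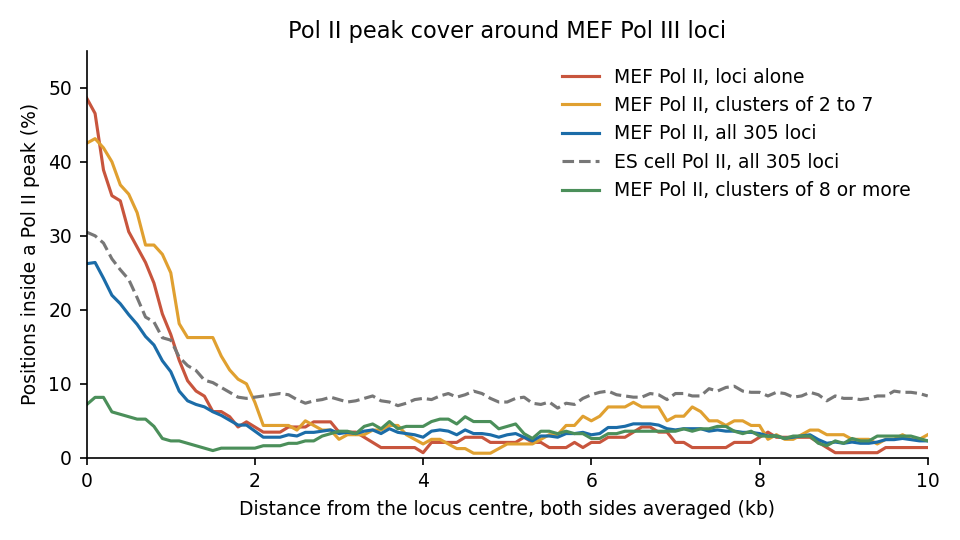
Share (%) of positions inside a Pol II peak against distance (kb) from the centre of MEF Pol III loci, averaged over both sides, for all 305 loci, for 3 classes of clustering and for the Pol II list of ES cells at the same loci. Cover at the centre is 48.6% for loci alone, 42.5% in clusters of 2 to 7 loci and 7.19% in clusters of 8 or more.

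Within the Pol II peaks that they overlapped, the loci were spread from centre to edge. Of the 93 loci, 68 (73.1%, 62.9 to 81.8%) lay wholly inside the peak, and the centre of 13 (14.0%) lay outside it. The distance between the centre of the locus and that of the Pol II peak had a median of 330.5 bp and quartiles of 213 and 458 bp. Within 100 bp of the peak centre lay 10 loci (10.8%, 5.28 to 18.9%), and within 250 bp lay 30 (32.3%). The shares that an even spread would give at these distances were not computed. Scaled so that 0 is the centre of the Pol II peak and 1 its edge, the offset had a median of 0.61 and quartiles of 0.33 and 0.80. An even spread over the peak would give equal counts in equal steps of this offset, and the counts were 12, 16, 18, 21 and 13 in steps of 0.2 from centre to edge, with 13 beyond the edge. The locus chr3:19528289-19528512 lay 32.5 bp from the middle of its Pol II peak. At the far end of the range, the locus at chr13:23622099-23622363 lay 1706 bp from the middle of a Pol II peak of 3939 bp.

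The 93 overlapping loci fell in 81 different Pol II peaks, which is 0.625% of the 12962 autosomal peaks. No locus overlapped more than 1 Pol II peak, 71 of the 81 peaks held 1 locus, 8 held 2 and 2 held 3. One of the peaks with 3 loci spanned chr11:68850123-68851243, with a score of 90.72, which put it at the 33.9th percentile of all Pol II peaks. Its loci chr11:68850440-68850691 (POLR3C 246, POLR3GL 58), chr11:68850898-68851077 (POLR3G 34, POLR3GL 62) and chr11:68851239-68851497 (POLR3C 253, POLR3G 22, POLR3GL 58) were spaced along the peak, and the last crossed its edge. The other spanned chr3:19527846-19529020 with a score of 213.21 (69.9th percentile). Of its loci, chr3:19528289-19528512 (POLR3C 271) and chr3:19528873-19529096 (POLR3C 253) were called by all 3 lists and chr3:19527888-19528035 by POLR3GL alone (31). The nearest ES cell Pol II peak to these loci on chromosome 3 was 265174 to 266235 bp away.

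The Pol II peaks on Pol III loci had a median score above the middle of the list, with an interval that reached it, and a median width near the middle. The percentiles to be met at random positions, where wider peaks are hit more often, were not computed. Their score percentile among all autosomal Pol II peaks had a median of 61.7 (quartiles 39.0 and 82.6) and their width percentile a median of 52.2 (32.5 and 71.0), with 50 as the middle of the list. In units of the deposited score the median was 175.33 against 131.495 for all autosomal Pol II peaks, and the median width was 1136 bp against 1094 bp. The binomial interval of the median score percentile was 49.3 to 69.9, which includes 50, and that of the width percentile was 48.9 to 57.0. Counted once per Pol II peak, the medians were 61.6 for score and 51.5 for width. The median score percentile was 71.5 for loci alone, 58.8 in clusters of 2 to 7 loci and 39.4 in clusters of 8 or more. Among the top 25% of Pol II scores lay 29 of the 93 (31.2%), and among the bottom 25% lay 13 (14.0%).

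Pol II peaks of nearly the whole range of scores and widths held a Pol III locus. The highest-scored Pol II peak on a locus (590.69, 96.7th percentile) spanned chr11:115273460-115275702 and held the loci chr11:115274174-115274405 and chr11:115275056-115275279, which scored 240 and 241 for POLR3C and 54 and 60 for POLR3GL. With the Pol II peaks split by score into 10 groups of nearly equal size, 2 of 1295 (0.154%) held a locus in the lowest group and 13 of 1297 (1.002%) in the highest, with overlapping exact intervals (0.0187 to 0.557% and 0.535 to 1.71%). Split by width in the same way, the share ranged from 0.232% to 1.08% and was 0.309% (4 of 1296) in the broadest group, with no steady order. The widest Pol II peak on a locus, at chr1:135968022-135976633, was 8612 bp wide, and its locus chr1:135971295-135971442 was called by POLR3GL alone with a score of 18.

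The weakest Pol II peaks lay on Pol III loci of varied rank. The lowest-scored overlapping Pol II peak (51, 1.5th percentile) lay at chr19:12079611-12080763, on the locus chr19:12080406-12080629 that all 3 lists called (POLR3C 222, POLR3G 25, POLR3GL 52). The next lay at chr13:22005978-22006742 (53.05), on chr13:22006652-22006875 with POLR3C 215 (50.4th percentile), POLR3GL 35 (27.8th) and no POLR3G call. It was followed by chr3:121995683-121996221 (58.61), on chr3:121995775-121995998 with POLR3C 249 (80.8th), POLR3G 21 (32.1st) and POLR3GL 67 (84.2nd). The narrowest was 282 bp wide and touched the end of chr6:128710032-128710255, a locus at the 15.3rd POLR3C and 10.8th POLR3GL percentile. Among the overlapping loci, Pol III and Pol II scores had a Spearman rho across loci of -0.14 for POLR3C (87 loci), 0.05 for POLR3G (67 loci) and -0.07 for POLR3GL (87 loci), given as descriptions over loci of the same libraries.

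For loci that did not overlap, the nearest Pol II peak had a lower median score percentile up to 10 kb away. It was 45.4 at 1 to 500 bp, 48.3 at over 500 and up to 2000 bp and 34.8 at over 2000 and up to 10000 bp, and 60.5 beyond 10000 bp. The last 2 values depend on a few Pol II peaks that serve as nearest peak for many clustered loci. The 59 loci at over 2000 and up to 10000 bp had 33 different nearest Pol II peaks, and the 124 loci beyond had 47. With each Pol II peak counted once, the medians of these 2 classes were 48.1 and 49.3, against 61.6 for peaks on a locus. Width percentiles in the 4 classes off the peak had medians of 58.1, 32.5, 45.0 and 54.2, with no order by distance, and once per peak of 48.9, 40.7, 45.0 and 42.7.

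**Figure D3:**
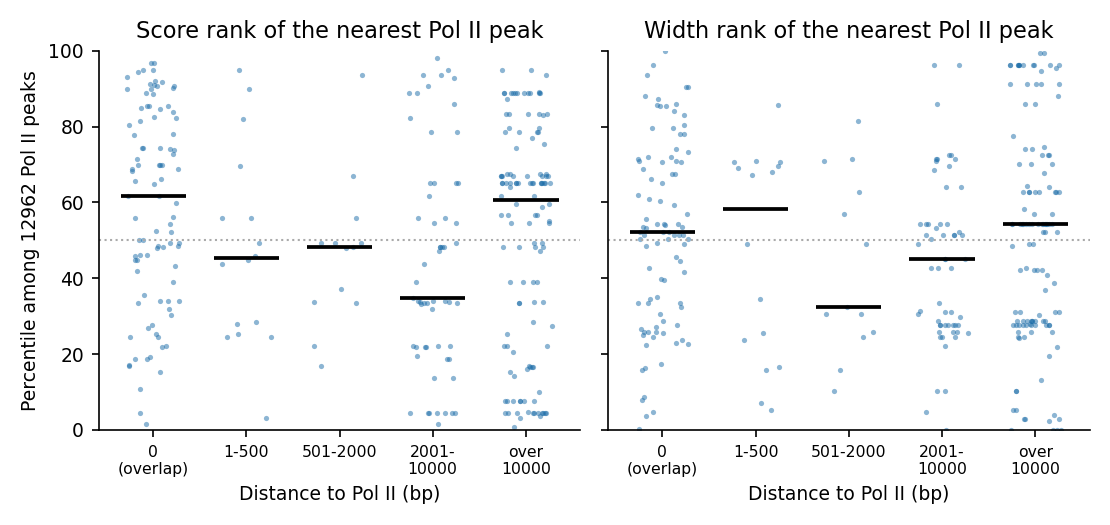
Percentile of the score (left) and width (right) of the nearest Pol II peak among 12962 autosomal MEF Pol II peaks, 1 point per Pol III locus, by distance (bp), with medians as bars and the middle of the list as a dotted line. Median score percentiles are 61.7, 45.4, 48.3, 34.8 and 60.5 from overlap to over 10000 bp, and rows of points at 1 level are loci that share a Pol II peak.

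Pol III scores ranked higher on Pol II peaks than far from them. POLR3C at overlapping loci had a median score of 230 (range 41 to 319, 87 loci) and a median percentile of 63.3, against 206 (40 to 286, 108 loci) and 43.8 for loci over 10000 bp away. The binomial intervals of these median percentiles were 54.7 to 70.1 and 34.9 to 53.6, although the scores themselves overlapped widely. These and the POLR3GL intervals below count loci as independent. They are too narrow, since 83 of the 124 far loci came from 7 groups of neighbouring loci. POLR3GL had a median score of 54 (15 to 100, 87 loci) and a percentile of 58.4 on Pol II, against 45 (15 to 80, 100 loci) and 41.3 far from it, with intervals of 53.2 to 73.6 and 32.3 to 50.4. POLR3G differed less, with median scores of 25 (15 to 46, 67 loci) and 23 (15 to 44, 60 loci) and percentiles of 52.6 and 44.3. Without chromosome 13, where 61 of the 124 far loci lie, scores were ranked anew within the shorter lists. The difference between the median percentiles was then 10 points for POLR3C and 4.0 for POLR3GL, against 19.5 and 17.1 on all autosomes.

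At the distances between, the order was not even. POLR3C percentiles had medians of 28.6 at 1 to 500 bp (13 loci), 69.4 at over 500 and up to 2000 bp (12 loci) and 43.0 at over 2000 and up to 10000 bp (54 loci). POLR3GL had 47.3, 54.9 and 43.7 in these classes, and POLR3G had 60.8, 56.0 and 56.5. Read the other way, the share of POLR3GL loci on a Pol II peak was 19.4% (10.8 to 30.9%) in the lowest 25% of POLR3GL scores, and 27.4%, 40.3% and 44.8% (32.6 to 57.4%) in the next steps of 25%. For POLR3C the shares were 21.7% (12.7 to 33.3%), 21.2% (12.1 to 33.0%), 44.3% (32.4 to 56.7%) and 39.1% (27.6 to 51.6%), with overlapping intervals. For POLR3G they were 27.9%, 46.5%, 38.3% and 39.5%, also with overlapping intervals.

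**Figure D4:**
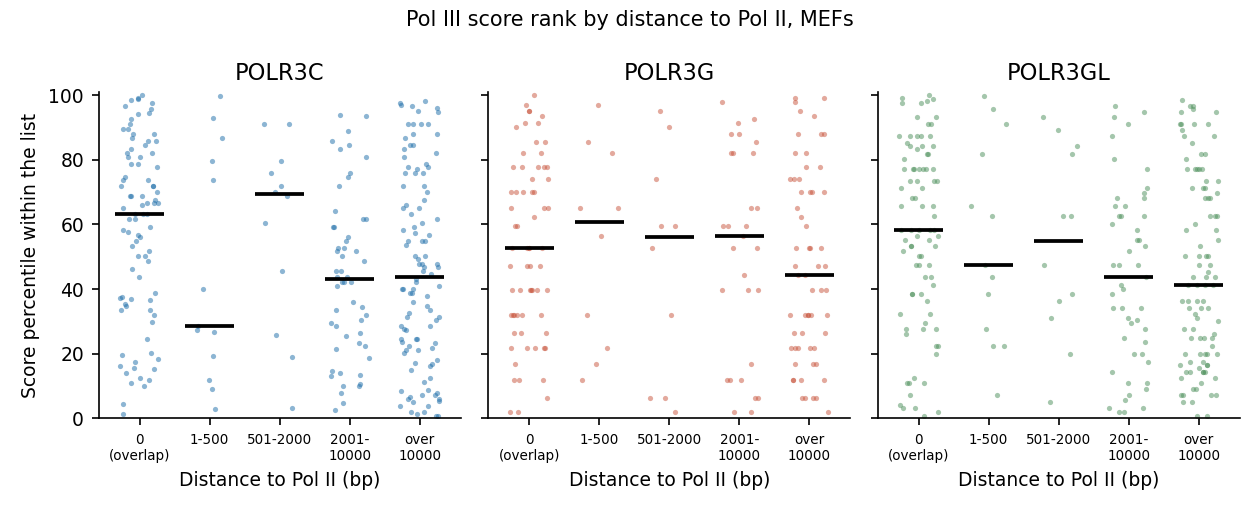
Percentile of the deposited score within each Pol III list, 1 point per locus called by that list, by distance (bp) to the nearest MEF Pol II peak, with medians as bars. POLR3C and POLR3GL medians are 63.3 and 58.4 on Pol II peaks and 43.8 and 41.3 over 10000 bp away, while the points of every class span most of the list.

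Loci on Pol II were also called by more of the Pol III lists. All 3 lists called 63 of the 93 overlapping loci (67.7%, 57.3 to 77.1%) and 54 of the 124 loci over 10000 bp away (43.5%, 34.7 to 52.7%). The share called by 1 list was 8.60% and 27.4%. Among the 3 lists the difference in calls was widest for POLR3G, with a peak at 67 of 93 overlapping loci (72.0%, 61.8 to 80.9%), 29 of 59 at over 2000 and up to 10000 bp (49.2%, 35.9 to 62.5%) and 60 of 124 farther away (48.4%, 39.3 to 57.5%). POLR3C was called at 93.5% of overlapping loci and 87.1% of far loci, and POLR3GL at 93.5% and 80.6%. POLR3G is the shortest of the lists. Over all 305 loci it was called at 57.7%, POLR3C at 89.8% and POLR3GL at 86.2%. Among loci alone (no other within 200 kb), POLR3G was called at 76.9% on Pol II and 38.1% far from it. These shares were 73.7% and 70.0% in clusters of 2 to 7, and 56.25% and 45.8% in clusters of 8 or more. In clusters of 2 to 7 POLR3C differed more (92.1% and 70.0%), and in clusters of 8 or more POLR3GL did (100% and 85.5%). How the number of lists relates to the score ranks was not tested.

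In each distance class the 2 loci with the highest mean percentile over the lists that called them are given as examples, without chromosome 18. On Pol II, chr7:127978905-127979128 had POLR3C, POLR3G and POLR3GL scores of 304, 46 and 100, and its Pol II peak of 1567 bp scored 315.80 (83.8th percentile). It was followed by chr11:106874103-106874326 (319, 39 and 86), inside a Pol II peak scored 285.39. At 361 bp from Pol II, chr14:51709102-51709325 scored 314, 29 and 91, and at 69 bp chr2:57034747-57034905 scored 41 for POLR3G and 71 for POLR3GL without a POLR3C call. At 611 bp, chr11:97850180-97850421 scored 262, 40 and 67, and at 1439 bp chr17:23685618-23685841 scored 262, 31 and 72. At 3421 bp, chr11:68854664-68854928 scored 266, 37 and 73, and at 3606 bp chr13:21802745-21802968 scored 252, 42 and 71. Far from Pol II, chr11:58115917-58116140 scored 277, 44 and 73 at 19723 bp, and chr1:172974994-172975217 scored 262, 35 and 75 at 68437 bp.

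The loci with the lowest percentile in each class were called by 1 list each. They were chr7:20519271-20519494 on a Pol II peak (POLR3C 41), chr10:92895767-92895990 at 17 bp (POLR3C 47), chr1:33774658-33774881 at 1570 bp (POLR3C 48), chr15:101106361-101106508 at 7916 bp (POLR3GL 16) and chr6:47689781-47690004 at 41370 bp (POLR3C 40). The first of these crossed the edge of a Pol II peak of 932 bp at the 71.5th score percentile.

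Distances differed widely between loci that stood alone and loci in large clusters. Loci at most 200 kb apart were joined, which gave 72 loci alone, 80 loci in 25 clusters of 2 to 7, and 153 loci in 8 clusters of 8 or more, a split chosen after seeing the data. Of the loci alone, 39 of 72 overlapped Pol II (54.2%, 42.0 to 66.0%), and of those in clusters of 2 to 7, 38 of 80 did (47.5%, 36.2 to 59.0%). In the 8 clusters of 8 or more, 16 of 153 did (10.5%, 6.10 to 16.4%), and 83 (54.2%) lay over 10000 bp from Pol II. The class at over 2000 and up to 10000 bp was mostly made of clustered loci, with 47 of 59 (79.7%) in the clusters of 8 or more. With each cluster or lone locus given a total weight of 1, 51.3% overlapped Pol II and 28.8% lay over 10000 bp away.

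The clusters of 8 or more loci differed among themselves. Overlap here and on chromosome 13 below means any shared base. Set against the share of a span that Pol II covers, it runs higher than a share of locus centres would. On chromosome 6 (128710032 to 128793410), 5 of 9 loci overlapped Pol II (55.6%, 21.2 to 86.3%) in a span of which Pol II peaks covered 3.21%. The other 4 lay within 4013 bp. The 9 loci had 4 different nearest Pol II peaks, at the 18.6th, 30.4th, 82.3rd and 90.6th score percentile. Taken over loci, the median of this percentile was 82.3. POLR3G was called at 1 of these 9 loci. On chromosome 1 (172963955 to 173041676), the 9 loci shared 1 nearest Pol II peak, which lay outside the cluster at 1978 to 79476 bp, and POLR3G was called at 8 of them. On chromosome 11 (68850440 to 68938871), 4 of 16 loci overlapped Pol II (7.27 to 52.4%), which covered 7.10% of the span, and the median distance was 2584 bp. On chromosome 3 (96125883 to 96305505), 0 of 16 loci overlapped Pol II (exact interval 0 to 20.6%), 5 Pol II peaks covered 2.59% of the span, and distances were 2795 to 20838 bp. The cluster of 8 loci on chromosome 17 (23672114 to 23687337) had 1 Pol II peak as nearest peak of all its loci, with 1 locus on it.

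Chromosome 13 held 3 of these clusters and 96 of the 305 loci, of which 6 (6.25%) overlapped Pol II. In the cluster from 21802402 to 22142702, 3 of 33 loci overlapped Pol II (9.09%, 1.92 to 24.3%). That interval includes the 8.16% of its 340.3 kb that 23 Pol II peaks covered. The 33 loci had 6 different nearest Pol II peaks in all. Their median score percentile, taken over loci, was 4.34. In the cluster from 21252621 to 21418688 none of 24 loci overlapped Pol II, 1 Pol II peak covered 0.707% of the span, and the median distance was 40645 bp. In the cluster from 23362220 to 23622363, 3 of 38 loci overlapped Pol II (7.89%, 1.66 to 21.4%), which covered 2.03% of the span, and the median distance was 11379.5 bp. Mouse chromosome 13 is known for a large group of tRNA and histone genes, but no gene was assigned to these loci.

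The higher Pol III ranks on Pol II peaks did not hold in every class of clustering. Among loci alone, the median POLR3C percentile was 65.0 on Pol II (37 loci) and 24.6 over 10000 bp away (19 loci), that of POLR3GL 65.6 and 41.3, and that of POLR3G 67.5 and 33.1. In clusters of 2 to 7 the order was turned around, with 66.8 on Pol II (35 loci) and 79.3 far from it (14 loci) for POLR3C, 57.4 and 78.7 for POLR3GL, and 43.5 and 76.0 for POLR3G. In clusters of 8 or more it was 50.4 and 41.1 for POLR3C, 47.0 and 34.0 for POLR3GL, and 59.4 and 42.0 for POLR3G. The 20 far loci in clusters of 2 to 7 come from 6 clusters, up to 5 from 1 cluster, so that they stand for few places in the genome. Only 2 clusters of this size had both kinds of locus with a score. Within both, the median percentile of overlapping loci was higher for POLR3C and POLR3GL and lower for POLR3G. In the one on chromosome 11, the overlapping locus chr11:48631926-48632149 had POLR3C and POLR3G percentiles of 83.2 and 77.8. Its far loci had 80.8 to 91.2 and 39.8 to 95.2. In clusters of 8 or more with both kinds, overlapping loci ranked higher in 4 of 4 for POLR3C, 2 of 2 for POLR3G and 2 of 3 for POLR3GL. The differences between classes of clustering were not tested.

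**Figure D5:**
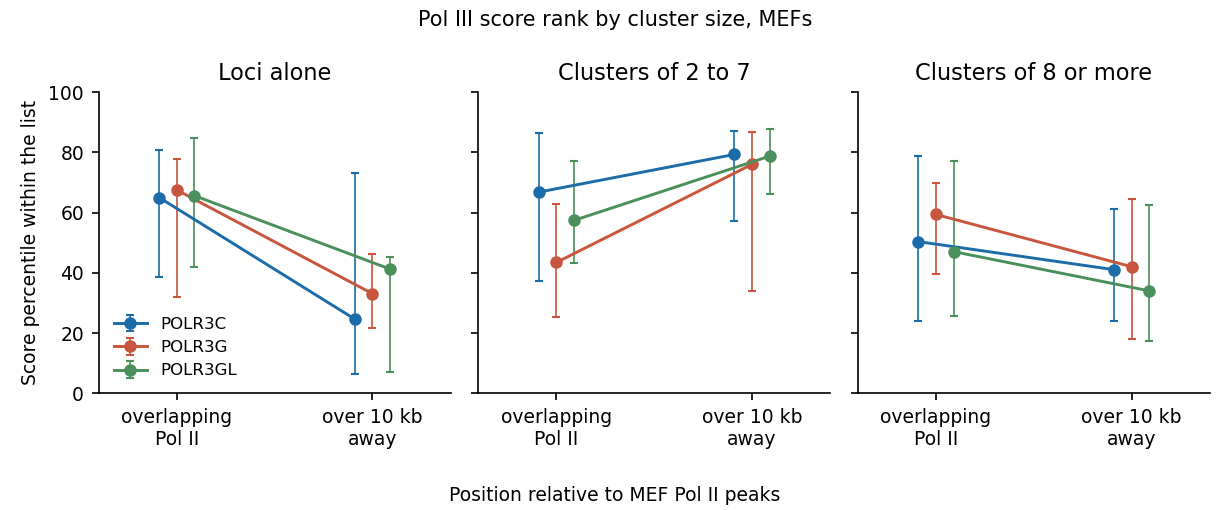
Median score percentile within each Pol III list, with quartiles as bars, for loci overlapping a MEF Pol II peak and loci over 10 kb away, split by the number of loci in the cluster. POLR3C medians go from 65.0 to 24.6 in loci alone, from 66.8 to 79.3 in clusters of 2 to 7 and from 50.4 to 41.1 in clusters of 8 or more.

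The same loci were set against the Pol II list of ES cells, which is longer, with 31667 autosomal peaks. These cover 1.86% of autosomal bases and leave 86.2% of bases over 10000 bp away. Of the bases within 50 kb of a MEF locus and outside the loci, 8.84% were in an ES cell Pol II peak and 47.3% over 10000 bp from one. For MEF Pol II these local shares were 3.37% and 60.4%. Of the 305 MEF loci, 100 (32.8%, 27.5 to 38.4%) overlapped an ES cell Pol II peak and 94 (30.8%) lay over 10000 bp from one. Centre cover was 30.5%, and it stayed at 7.54% at 5000 bp, where MEF Pol II cover was 3.11%. Of the 93 loci on MEF Pol II, 62 (66.7%, 56.1 to 76.1%) were also on ES cell Pol II, and 16 (17.2%) were over 10000 bp from it. Of the 124 loci far from MEF Pol II, 24 (19.4%, 12.8 to 27.4%) were on ES cell Pol II, and 66 (53.2%) were far from it as well. The distance class was the same in both cell types for 177 loci (58.0%, 52.3 to 63.6%). ES cell Pol III loci set against their own Pol II gave 110 of 330 overlapping (33.3%, 28.3 to 38.7%) and 108 (32.7%) over 10000 bp away. The difference from MEFs was not tested.

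Loci on Pol II in both cell types had higher Pol III ranks than those on MEF Pol II alone. The median POLR3C percentile was 67.7 (59 loci) against 46.3 (28 loci), that of POLR3GL 71.3 (60 loci) against 47.3 (27 loci), and that of POLR3G 56.0 (50 loci) against 39.8 (17 loci). The MEF Pol II peaks themselves had median percentiles in the 2 sets of 61.7 and 66.2 for score and 52.9 and 50.5 for width. For the 31 loci on MEF Pol II alone, the nearest ES cell Pol II peak lay 29 to 266235 bp away, with a median of 11502 bp. Each of these sets mixes loci of all classes of clustering, and differences between lists of unequal length and unknown depth had no replicate check.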

How the data were processed

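ChIP-seq peak lists of MEFs (POLR3C, POLR3G, POLR3GL, Pol II) and of ES cells for comparison were used, 1 library each, and the 2 input libraries were not analysed here. CASAVA 1.8, Bowtie, SAMtools and HOMER and the build mm9 are named in the submitters' processing notes. For calling thresholds, controls and pooling the sources used here give nothing. The deposited score of each peak has no stated scale and was used only as a percentile within its list (100 for the highest, ties at their mean rank). A locus with several peaks of a list took the highest score.

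Starts were read as 0-based and positions are printed 1-based. Peaks were merged at 1 bp of overlap and distances taken between nearest bases. Merging and distances were checked on simulated data and against bedtools. Shares have exact Clopper-Pearson 95% intervals, medians binomial intervals, all of which count loci as independent. No p-value was computed, since there are no replicates. Depth is unknown. Named loci are those with the 2 highest and the lowest mean percentile per distance class, Pol II peaks with 3 loci, extremes of Pol II score, width and distance, and loci at class edges, without chromosome 18. Members, classes and this rule were chosen with earlier results of these data known. No sequence is printed, because a genome of build mm9 was not used here. Python 3.11.15, numpy 2.4.6, scipy 1.17.1 and pandas 2.3.3 were used.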

Additional observations from a re-analysis of the deposited data

How the results depend on the processing

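The 7 values compared across settings were the shares on a Pol II peak, within 2 kb and over 10 kb away, the median score and width percentiles of overlapping Pol II peaks, and the differences in median POLR3C and POLR3GL percentile. Of the recalculations other than by cluster size, 65 stayed within the 95% intervals of the reported values and 12 did not, and none changed sign. The differences have no interval of their own, so for them both medians had to stay within theirs. Without chromosome 13 and with all chromosomes, peaks were ranked anew within the changed lists, so those percentiles are on another scale. The POLR3C difference moved from 19.5 to between 10 and 26.8 points and the POLR3GL difference from 17.1 to between 4.0 and 24.3. Leaving out the POLR3C or the POLR3GL list gives no value for the difference of that list. No paired analysis was possible because each group has 1 library. With Pol II peaks at or above the median score only, the shares were 18.4%, 21.6% and 67.9%, and the percentiles 77.9 for score and 59.8 for width; fewer Pol II peaks leave larger distances by construction. The differences there were 12.96 and 9.51 points. With each cluster given a weight of 1, the shares were 51.3%, 63.2% and 28.8%. Without chromosome 13 they were 41.6%, 54.1% and 30.1%, and the POLR3GL difference was 4.0 points; the cause was not tested. Leaving out any 1 Pol III list, other merging rules, loci of 2 or more lists, distances from the locus centre and all chromosomes kept the shares and the Pol II percentiles inside their intervals.

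By cluster size, chosen after seeing the data, the shares were 54.2%, 65.3% and 29.2% for loci alone, 47.5%, 65% and 25% in clusters of 2 to 7, and 10.5%, 15.0% and 54.2% in clusters of 8 or more. The score percentile was 71.5 for loci alone and 39.4 in clusters of 8 or more, and the width percentile 66.8 in clusters of 2 to 7. The POLR3C difference was 40.3 points for loci alone, -12.5 in clusters of 2 to 7 and 9.31 in clusters of 8 or more, and the POLR3GL difference was -21.3 and 13 in the last 2; the cause was not tested. The unknown depth of the Pol II library limits every statement on loci without a Pol II peak.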

Other observations

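One Pol III locus of MEFs lay outside the autosomes, at chrX:157203936-157204185, with scores of 213 for POLR3C, 26 for POLR3G and 43 for POLR3GL. It was 160499 bp from the nearest MEF Pol II peak, farther than any of the 305 autosomal loci, whose highest distance was 145285 bp. That Pol II peak was 476 bp wide with a score of 57.26.

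Of the 24 loci that were over 10000 bp from MEF Pol II and on an ES cell Pol II peak, 9 were among the 21 such far loci that stood alone (42.9%, exact 95% interval 21.8 to 66.0%), 5 among 20 in clusters of 2 to 7 (25%, 8.66 to 49.1%) and 10 among 83 in clusters of 8 or more (12.0%, 5.93 to 21.0%). Of the 305 loci, 70 lay within 10 kb of at least 2 MEF Pol II peaks.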
